A study of Homo sapiens with 12 samples.

Results

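The genes of the machinery that carries cells from G1 into S phase were followed in PANC-1 cells after a short block of mTORC1. The 10 members followed were the cyclins CCND1, CCND3, CCNE1 and CCNE2, the kinases CDK2, CDK4 and CDK6, the inhibitors CDKN1B (p27) and CDKN2A (p16 and ARF), and RB1, chosen by name from the 20212 genes of the count table. PANC-1 is an established line from a human pancreatic duct carcinoma, which the study used as a line without the translation repressor 4EBP1. The control cells received DMSO, and the treated cells received 50 nM rapamycin, an inhibitor of mTORC1, for 60 min. Each of the 3 replicates of a treatment gave 1 library of ribosome footprints (RF, the mRNA fragments that ribosomes protect from nuclease) and 1 of total RNA, so that 12 libraries were compared. The labels do not say that replicates were separate cultures, so p-values measure the spread between these samples, which may be technical. All results come from 1 cell line and 1 time after treatment.

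Cyclin D proteins pair with CDK4 and CDK6, and cyclin E proteins with CDK2. Both kinase complexes phosphorylate the retinoblastoma protein RB, which then releases E2F factors to switch on genes of DNA synthesis. p27 binds the cyclin E complex and p16 binds CDK4 and CDK6, and both hold cells in G1. mTORC1 controls the translation of many mRNAs, those that start with a C followed by a run of pyrimidines (5′TOP mRNAs) most of all, and cyclin D1 is a classical example of an mRNA sensitive to the cap-binding factor eIF4E.

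The 5′ ends of the mRNAs were read first, since a TOP sequence is the best known mark of an mRNA under mTORC1. The first 20 bases of the GENCODE canonical transcript on GRCh37 are shown for CDKN1B, the only member that starts with C and continues with at least 4 more pyrimidines, and for 3 members for contrast: CCND1, which had the most footprints, and CDK2 and CCNE1, whose fitted changes are described further on. The pyrimidine run at the start is in capitals.
CDKN1B, chr12:12870302-12870321, + strand: CTTCTTCgtcagcctccctt
CCND1, chr11:69455924-69455943, + strand: agagggctgtcggcgcagta
CDK2, chr12:56360614-56360633, + strand: attgtttcaagttggccaaa
CCNE1, chr19:30302898-30302917, + strand: aggagcagccggcgcggccg
The run of CDKN1B was 7 bases long. By the same letters, 844 of 18605 genes with such a transcript (4.54%) began with a TOP sequence. These are annotated ends, and the starts that PANC-1 uses were not measured.

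Depth set what could be seen. RF libraries held between 278835 and 1574723 counts and RNA libraries between 78081241 and 94293744, and the members together received 2420 footprints, from 50 for CCNE2 to 545 for CCND1. Values are given as CPM, counts per 1000000 after scaling by edgeR's TMM factors within each library type. Where no read was counted, up to 3 remain possible, which corresponded to 9.18 CPM in the RF library of DMSO replicate 1 and 9.93 CPM in that of rapamycin replicate 3, the 2 shallowest, and between 2.03 and 3.76 CPM in the other 4. These limits cover counting error only. Markers of the labelled cell type were present in total RNA, though they do not identify the line. All 8 epithelial and duct markers had a median of at least 1 CPM, led by KRT8 at 3548 CPM, and so did all 4 mesenchymal markers, led by VIM at 4291 CPM. The 4 acinar and 3 endocrine markers stayed under 1 CPM in every library, and of the 3 leukocyte markers the median passed 1 CPM for the lysosomal CD68 alone, at 111 CPM. Of 3 fibroblast and endothelial markers it did so for COL1A1 alone, at 4.49 CPM. In such bulk libraries, fewer cells of a kind and less RNA per cell cannot be told apart.

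Translation efficiency (TE) is RF over total RNA, and a change in it was tested as the treatment effect that RF and RNA counts did not share, with edgeR's quasi-likelihood method, and adjusted by Benjamini-Hochberg over 13329 genes. None of the 10 members passed an adjusted p of 0.05 in TE, RF or total RNA, and neither did any other gene in this test. With an unadjusted p under 0.05, 1679 genes (12.6%) passed in TE, 490 (3.68%) in RF and 776 (5.82%) in total RNA. By DESeq2's Wald test, 606 genes were lower and 675 higher in TE at an adjusted p under 0.05, 1 lower and 4 higher in RF, and 4 lower and 25 higher in total RNA. By limma on log2 TE per replicate no gene passed. The edgeR fit of TE let RF and RNA share their spread, with a common coefficient of variation between replicates of 24.4%. Fitted alone, RF had 54.9% and total RNA 5.31%. The TE intervals and p-values of edgeR may therefore understate the spread of RF. Of the members, 3 of 10 passed the unadjusted threshold in TE, namely CDKN1B and CDK2, which were lower (6.42% of all genes), and CCNE1, which was higher (6.17%). No member did so in RF. In total RNA, CDK4 was lower (2.51% of all genes) and CDKN2A higher (3.32%). By limma on log2 TE per replicate, the unadjusted p in TE was 0.139 for CDKN1B, 0.204 for CDK2 and 0.487 for CCNE1. Of the members, 7 were fitted lower in TE and 8 in RF, against 53.7% and 48.7% of all genes tested, and 7 in total RNA, against 46.8%. The median log2 fold change of the 10 was −0.26 in TE, −0.36 in RF and −0.0083 in total RNA, beside −0.061, 0.020 and 0.0059 over all genes tested. Without CDKN2A, the median of the 9 was −0.12 in TE and −0.38 in RF.

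**Figure D1:**
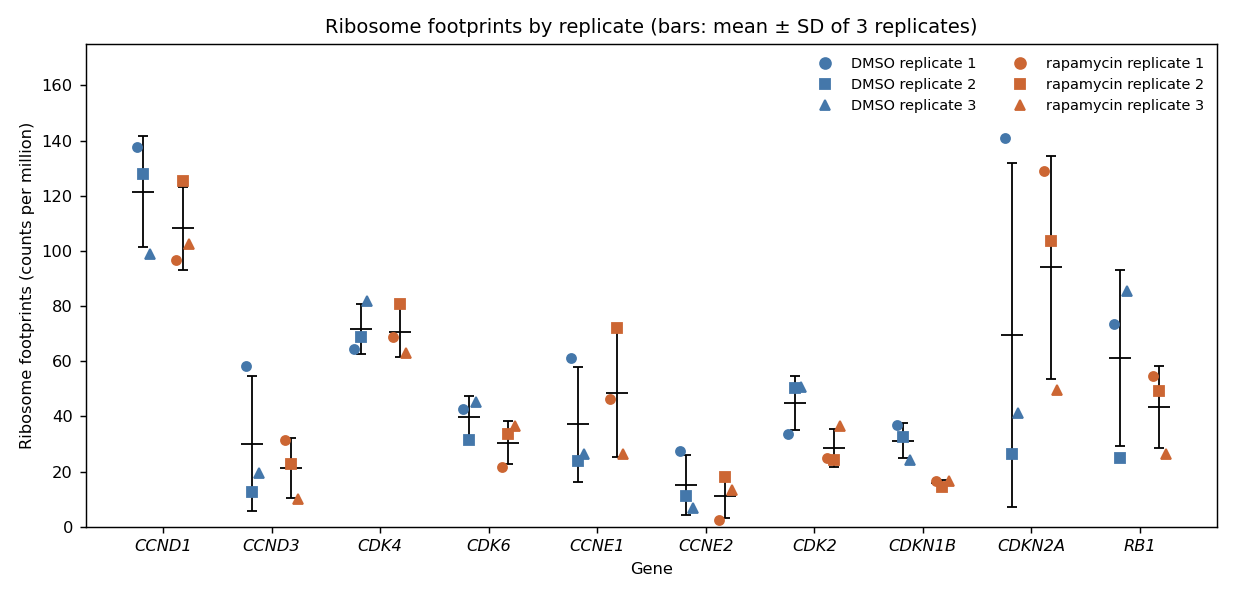
Ribosome footprints of the 10 genes in CPM (y axis) in each replicate, blue for DMSO and orange for rapamycin, with the mean and SD of 3 replicates in black. CDKN1B is the only member whose 3 rapamycin values (14.4 to 16.5) all lie below the 3 DMSO values (24.4 to 36.7).

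CDKN1B encodes p27, the inhibitor of cyclin E–CDK2 (chr12:12838432-12875303, + strand). Its RF level was 36.7, 32.6 and 24.4 CPM in DMSO replicates 1, 2 and 3, and 16.5, 14.4 and 16.5 CPM in rapamycin replicates 1, 2 and 3. These rest on 12, 26 and 36 counts with DMSO and 20, 12 and 5 with rapamycin. Every rapamycin replicate was below every DMSO replicate, as for 562 of 13329 genes (4.22%). Total RNA was 38.1, 39.1 and 41.0 CPM in DMSO and 40.8, 35.7 and 38.9 CPM in rapamycin, and here the treatments overlapped. Log2 TE averaged −0.35 ± 0.36 with DMSO and −1.28 ± 0.04 with rapamycin (SD, n = 3 each), again without overlap, with a two-sided exact permutation p of 0.1, the smallest that 3 against 3 can give. TE was lower without overlap in 680 genes (5.1%). The fitted log2 fold change was −0.83 in TE (95% interval −1.50 to −0.15, edgeR adjusted p = 0.311) and −0.96 in RF (−2.27 to 0.36, edgeR adjusted p = 0.9999). Over the alternatives the TE value ran from −1.11 to −0.73, with adjusted p from 0.0667 to 1.

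CDK2 is the kinase of the cyclin E complexes (chr12:56360565-56366573, + strand), and the study named it among mRNAs with lower TE on these libraries, so its direction here is not independent of that choice. RF was 33.7, 50.1 and 50.8 CPM in DMSO and 24.8, 24.1 and 36.4 CPM in rapamycin. The highest rapamycin replicate, number 3, lay above the lowest DMSO replicate, number 1, and these are the 2 shallowest RF libraries. Total RNA was between 70.7 and 76.3 CPM in all 6 libraries. Log2 TE was −0.74 ± 0.30 in DMSO and −1.39 ± 0.34 in rapamycin (SD, n = 3 each, two-sided exact permutation p = 0.2). The fitted log2 fold change was −0.79 in TE (95% interval −1.52 to −0.07, edgeR adjusted p = 0.358) and −0.71 in RF (−1.78 to 0.36). DESeq2's Wald test called 606 of 13329 genes lower and 675 higher in TE. CDK2 was among them, at −0.88 with an adjusted p of 0.00557, and no other member was. Over all alternatives the value ran from −1.02 to −0.65 and the adjusted p from 0.00557 to 1.

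The cyclin partners of CDK2 had 202 (CCNE1) and 50 (CCNE2) footprints in all, beside 187 for CDK2. CCNE1, cyclin E1 (chr19:30302898-30315219, + strand), had 61.2, 23.8 and 26.4 CPM of RF in DMSO and 46.3, 72.2 and 26.5 CPM in rapamycin. The highest DMSO value, in the shallow replicate 1, was above 2 of the 3 rapamycin values, so the treatments overlapped. Its total RNA was between 26.9 and 31.1 CPM. The fitted log2 fold change of CCNE1 was 0.80 in TE (95% interval 0.03 to 1.58, edgeR adjusted p = 0.380) and 0.48 in RF (−0.66 to 1.62), while log2 TE per replicate differed by 0.41, with a two-sided exact permutation p of 0.6. When single replicates were left out, CCNE1 ran from 0.46 to 1.05 in TE and from 0.063 to 0.97 in RF, both lowest without rapamycin replicate 2, which had its highest RF value. CCNE2, cyclin E2, was covered by 9, 9 and 10 footprints with DMSO and 3, 15 and 4 with rapamycin, or 27.6, 11.3 and 6.77 against 2.48, 18.1 and 13.2 CPM. At that depth no change in its RF was detectable, and the interval of the log2 fold change reached from −2.46 to 1.70. Its fitted TE was −0.12, and it became positive without DMSO replicate 1 (0.31) or without rapamycin replicate 1 (0.71). CCNE2 and CDK4 were the 2 members whose total RNA did not overlap between treatments. Both were lower with rapamycin, as were 6.76% of all genes without overlap. CCNE2 was at 38.5, 39.3 and 38.9 CPM in DMSO and 37.6, 36.0 and 36.8 CPM in rapamycin. Its log2 fold change in total RNA was −0.08 (edgeR adjusted p = 0.766).

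Among the D-type arm, CCND1, the main G1 cyclin of many carcinomas (chr11:69455924-69469242, + strand), was the best measured member. RF was 138, 128 and 98.9 CPM in DMSO and 96.7, 125 and 103 CPM in rapamycin, and total RNA was between 206 and 216 CPM in every library. The treatments overlapped in both. The fitted log2 fold change was −0.11 in TE (95% interval −0.61 to 0.38, edgeR adjusted p = 0.912) and −0.15 in RF (−0.80 to 0.49). The TE profile over the 6 pairs of libraries was most like that of MSANTD3 (Pearson's r = 0.995), PDE3B (0.986) and SLC9A7 (0.964) among the 6130 other genes with at least 100 RF counts. This is a description over 6 points that share their libraries.

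CDK4, the main kinase partner of cyclin D1 (chr12:58141510-58149796, − strand), was as even. RF was 64.3, 69.0 and 82.0 CPM in DMSO and 68.6, 80.7 and 62.9 CPM in rapamycin, and the log2 fold change was 0.05 in TE (95% interval −0.47 to 0.58) and −0.02 in RF (−0.79 to 0.74). In total RNA, CDK4 was at 141, 149 and 143 CPM in DMSO and 136, 135 and 139 CPM in rapamycin. Every rapamycin value was below every DMSO value, as for 901 of 13329 genes (6.76%), with a log2 fold change of −0.08 (95% interval −0.15 to −0.01) that did not pass adjustment (edgeR adjusted p = 0.766, two-sided exact permutation p = 0.1). CDK6, the second kinase of the D-type cyclins (chr7:92234235-92465887, − strand), had 42.9, 31.3 and 45.4 CPM of RF in DMSO and 21.5, 33.7 and 36.4 CPM in rapamycin, with overlap. Its log2 fold change was −0.52 in TE (95% interval −1.14 to 0.09, edgeR adjusted p = 0.470) and −0.41 in RF (−1.50 to 0.69), and its total RNA was between 281 and 309 CPM. Without rapamycin replicate 1, where CDK6 had its lowest RF value, TE was at −0.28.

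CCND3, cyclin D3 (chr6:41902672-42018095, − strand), had 58.2, 12.5 and 19.6 CPM of RF in DMSO and 31.4, 22.9 and 9.93 CPM in rapamycin, the last from 3 counts. The DMSO replicates spanned a wider range than the rapamycin replicates, and the treatments overlapped. Its fitted TE was 0.16 in the joint model but −0.35 as the difference of log2 TE per replicate, and RF alone gave −0.33 (95% interval −1.81 to 1.15), so that no direction can be given. Its total RNA was between 24.9 and 26.8 CPM.

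RB1 (chr13:48877880-49173572, + strand) is the target of both kinase complexes. RF was 73.5, 25.1 and 85.4 CPM in DMSO and 54.6, 49.4 and 26.5 CPM in rapamycin, on counts of 20 to 126 and 8 to 66. DMSO replicate 2 lay below all rapamycin values and the other 2 DMSO replicates above them. The log2 fold change was −0.39 in TE (95% interval −1.40 to 0.62, edgeR adjusted p = 0.776) and −0.45 in RF (−1.50 to 0.61), and TE turned to 0.14 without DMSO replicate 3. Total RNA stayed between 86.6 and 90.1 CPM.

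**Figure D2:**
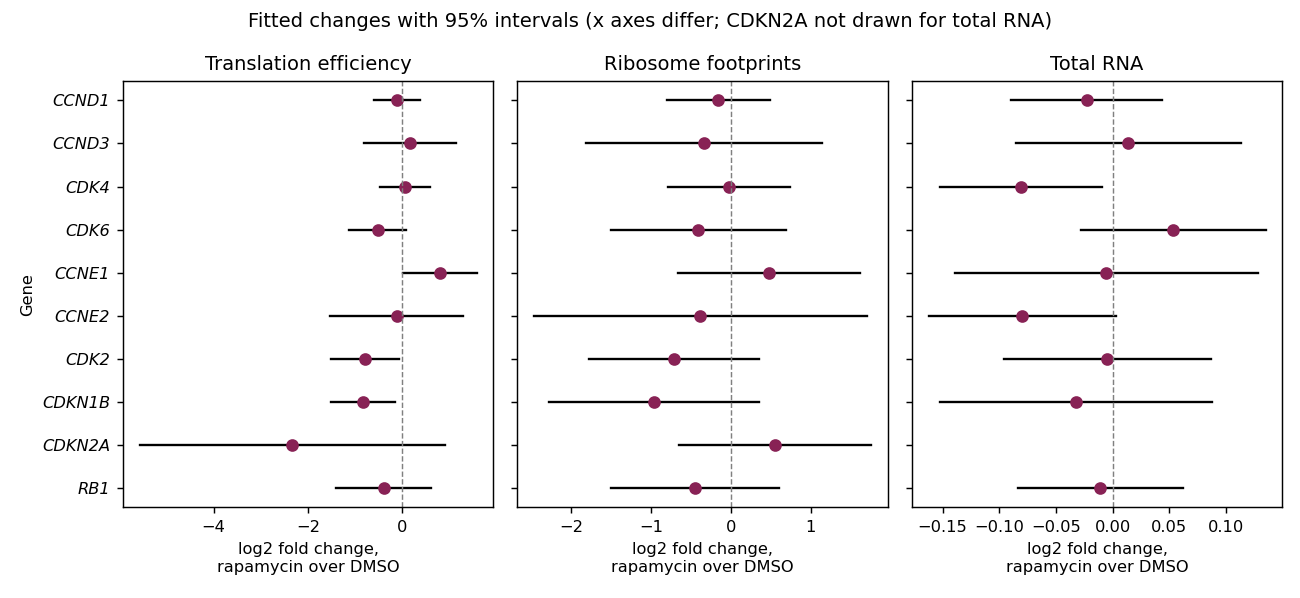
Log2 fold change of rapamycin over DMSO (x axis, a different scale in each panel) with its 95% interval for TE, RF and total RNA. In TE the intervals of CCNE1, CDK2 and CDKN1B leave out 0 before adjustment, and in total RNA the 9 members drawn lie between −0.08 and 0.05. The TE fit shares its spread between RF and RNA, so its intervals may be too narrow. CDKN2A, at 3.40 with an interval of 0.10 to 6.71, is left out of the total RNA panel.

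Leaving CDKN2A aside, the mRNA levels of the other 9 members differed little in the hour of treatment, with fitted log2 fold changes from −0.08 to 0.05. Isoform shares of the deposited FPKM (fragments per kilobase and per 1000000 fragments, made by the authors with Cufflinks) were compared without a test. Of 53 isoforms of these 9 genes with at least 1% of their gene in either treatment, the mean share differed by between −7.00 and 7.61 percentage points, and 8 did not overlap between treatments. With 3 against 3, a random split gives no overlap with a probability of 0.1, and the share among all isoforms was not computed. The forms named below as without overlap are therefore a description only. RB1 had 96.3% ± 0.718 of its FPKM on 1 transcript in DMSO and 94.8% ± 0.459 in rapamycin (SD, n = 3), without overlap. CDKN1B had 85.9% ± 4.63 and 86.2% ± 1.49 on the transcript shown above, and CCND1 had 78.6% ± 2.84 and 78.7% ± 2.27 on its canonical transcript. The canonical transcript of CCNE2 had 66.9% ± 4.41 in DMSO and 74.5% ± 5.74 in rapamycin, without overlap. A retained-intron form of CDK6 had 3.29% ± 0.227 and 6.33% ± 1.68, and a CDK2 form of 714 coding bases 2.41% ± 0.644 and 0.359% ± 0.573, both without overlap. Other CDK2 forms were higher with rapamycin, also without overlap. A CDK2 form of 792 coding bases had 5.19% ± 1.89 in DMSO and 7.89% ± 0.780 in rapamycin. A CDK2 form without a defined coding sequence had 2.16% ± 2.02 and 4.54% ± 0.409. CDK4 was divided among more forms, with 36.8% ± 0.741 in DMSO and 36.3% ± 0.754 in rapamycin on a transcript of 333 coding bases, and 9.83% ± 1.53 and 9.98% ± 1.41 on the canonical one of 909. CCNE1 was divided between a transcript of 1185 coding bases (34.7% ± 4.23 and 32.6% ± 7.48) and the canonical one of 1230 (32.9% ± 9.70 and 37.8% ± 8.75).

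Per length, CDK4 was the most abundant of the members in DMSO total RNA, at 130 ± 6.24 FPKM (SD, n = 3). It was followed by CCND1 at 61.8 ± 2.63, CDK2 at 45.5 ± 1.31 and CDK6 at 31.6 ± 1.63 FPKM, each apart from the next in all 3 replicates. RB1 (15.6 ± 0.180) and CDKN1B (15.6 ± 0.618) overlapped, CCNE1 was at 14.6 ± 0.191, and CCNE2 (11.6 ± 0.102) and CCND3 (11.5 ± 0.373) overlapped. With raw counts per kilobase of all exons and per 1000000 counts, CDK4 (46.6) and CCND1 (44.9) were close to each other, CDK6 stood above CDK2, and CDKN1B was below CCND3, so those places depend on how length is counted. The exon lengths came from GENCODE, while the counts were made on the annotation that the authors used, so the 2 may differ.

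In footprints per kilobase of coding sequence and per 1000000 RF counts, the order in DMSO was less sharp. CCND1 had 137 ± 22.8, CDK4 78.9 ± 10.1, CDKN1B 52.6 ± 10.6, CDK2 50.2 ± 10.9, CDK6 40.8 ± 7.65, CCND3 34.4 ± 28.0, CCNE1 30.2 ± 17.0, RB1 22.0 ± 11.5 and CCNE2 12.5 ± 9.02. CCND1 was apart from CDK4, and CDK4 from CDKN1B, in all 3 replicates, while every later pair of neighbours overlapped. CDK4 thus had the most mRNA by FPKM but fewer footprints per coding base than CCND1. The ratio of footprints per coding kilobase to FPKM was 0.608 for CDK4, 1.10 for CDK2, 2.22 for CCND1 and 3.37 for CDKN1B, on a scale whose unit has no absolute meaning. With both library types per kilobase of all exons, length cancels, and each ratio is RF CPM over total RNA CPM. These ratios were 0.497, 0.609, 0.568 and 0.793, a smaller spread, and CDK2 stood above CCND1. The first ratios, unlike these, depend on how length is counted in each library type.

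**Figure D3:**
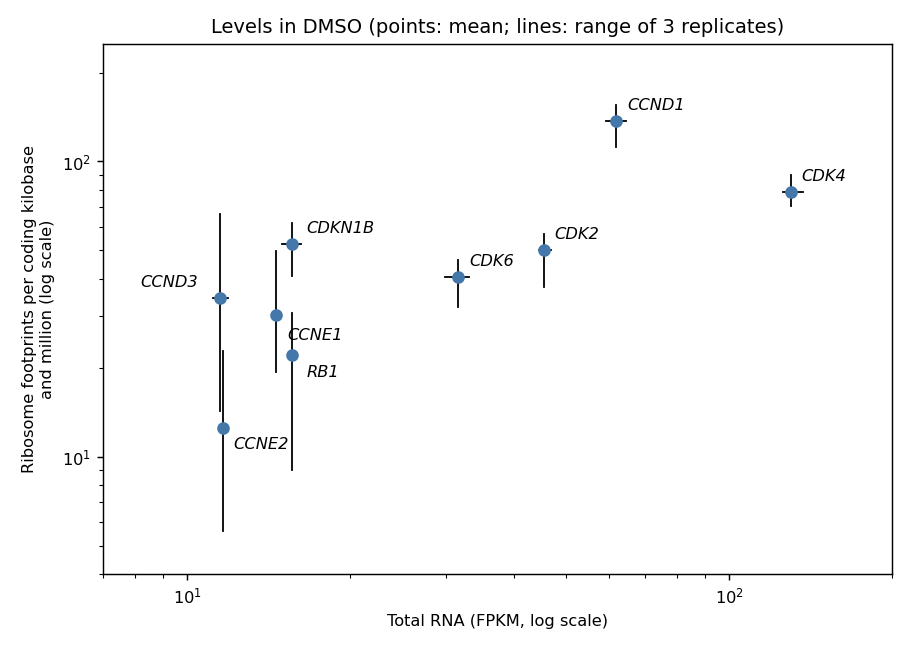
Levels of 9 members in DMSO, with total RNA in FPKM on the x axis and footprints per coding kilobase and per 1000000 RF counts on the y axis, both on log scales. Points are means and lines the range of 3 replicates. CDK4 lies farthest right at 130 FPKM and CCND1 highest at 137, and the vertical lines of CCND3, CCNE1, RB1 and CCNE2 overlap. CDKN2A is not drawn.

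CDKN2A encodes p16 and ARF (chr9:21967751-21995300, − strand) and is reported to be deleted in PANC-1, so that its counts would show what the assays give for a gene without a template. In total RNA it had 1, 0 and 31 counts in DMSO replicates 1, 2 and 3 and 154, 148 and 18 in rapamycin replicates 1, 2 and 3. At most this was 1.90 CPM, and 34.4% of all genes had fewer RNA counts. The treatments overlapped, and the fitted log2 fold change of 3.40 had an edgeR adjusted p of 0.766 and a 95% interval of 0.10 to 6.71. It was 7.55 without DMSO replicate 3, which alone carried 31 of the 32 DMSO counts. Its footprints were of another order. RF held 46, 21 and 61 counts with DMSO and 156, 86 and 15 with rapamycin, or 141, 26.3 and 41.3 against 129, 104 and 49.6 CPM. The exact 95% Poisson interval of the smallest count, 15, was 8.40 to 24.7, far above 0.

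CDKN2A had more footprints in all (385) than every member except CCND1, and 90.2% of all genes in the table had fewer. Per coding kilobase and 1000000 RF counts, its RF was 148 ± 133 in DMSO (SD, n = 3), overlapping CCND1, while its total RNA was at most 0.0715 FPKM in DMSO. More RF than RNA counts over the 12 libraries, as in CDKN2A (385 against 352), were found in 234 of 6131 genes with at least 100 RF counts (3.82%), although RNA libraries were far deeper. In DMSO replicates 1 and 2 together, 34 genes had at most 1 RNA count and at least the 67 RF counts that CDKN2A had there. Its fitted TE of −2.33 (95% interval −5.57 to 0.90) is therefore a ratio to an RNA level near 0, and it ran from −6.51 to −1.35 when single replicates were left out. Where in the gene these reads lie was not measured, since the files give 1 count per gene.

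The genes along 9p show how far low RNA counts reached. In the order of the chromosome, total RNA was between 0.835 and 1.46 CPM for MLLT3, between 26.4 and 27.8 for FOCAD, between 21.4 and 24.1 for KLHL9, and between 0.149 and 0.497 for IFNE. MTAP, the purine salvage enzyme often lost together with CDKN2A, had 167 to 223 RNA counts per library, or 1.79 to 2.86 CPM. It was therefore low but present in all 6 libraries, with 24 footprints in all. CDKN2B (p15), the neighbour on the other side, had 0, 0 and 12 RNA counts in DMSO and 91, 91 and 12 in rapamycin, so that the low and high libraries were those of CDKN2A, but with 1 footprint in all. DMRTA1, next in line, had 617 to 821 RNA counts per library, or 6.97 to 10.5 CPM, and no footprint in any of the 6 libraries, which allows up to 0.590 CPM over them. ELAVL2, the last, had 0 to 33 RNA counts per library and 64 footprints. Thus CDKN2A had RF with almost no RNA, and DMRTA1 had RNA with no RF. The fitted TE of FOCAD was −0.99 (unadjusted p = 0.0483, edgeR adjusted p = 0.392) and that of MTAP 0.55 (edgeR adjusted p = 0.846).

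**Figure D4:**
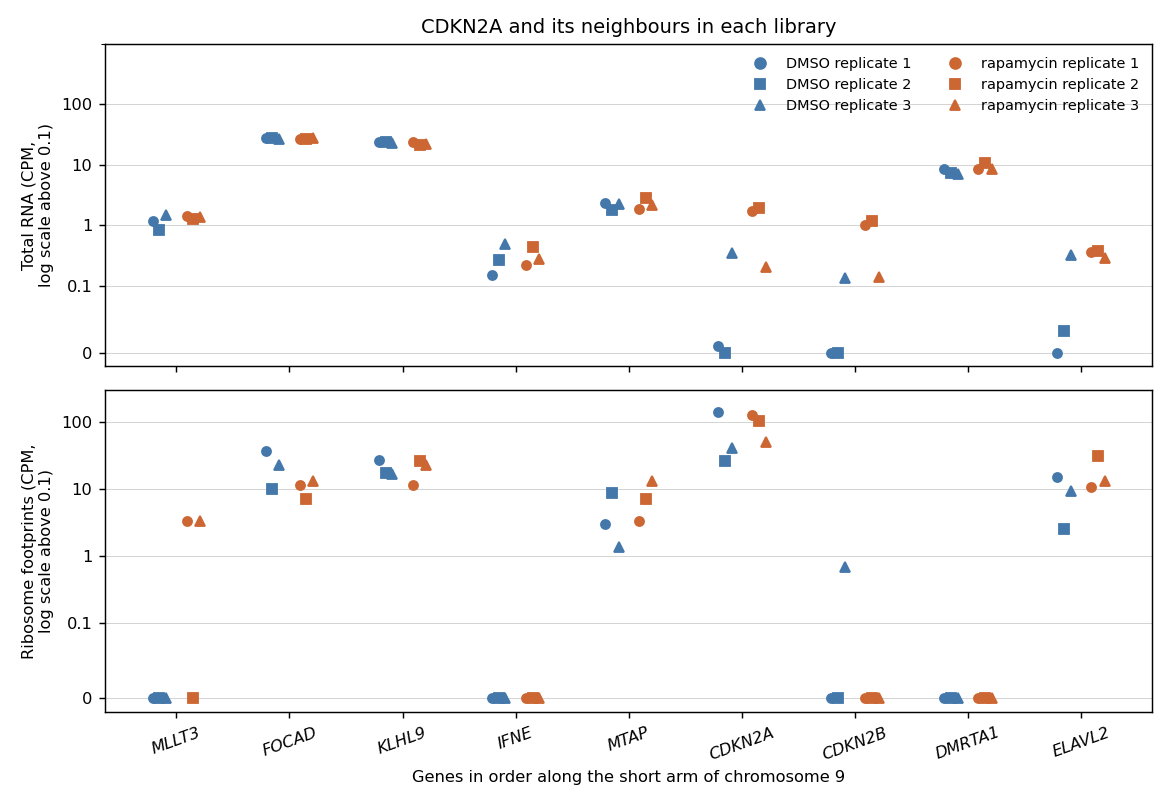
CPM of CDKN2A and 8 neighbours in the order of the chromosome, total RNA above and RF below, on a scale that is linear below 0.1 and logarithmic above it. CDKN2A has at most 1.90 CPM of total RNA but 26.3 to 141 CPM of RF, while DMRTA1 has at least 6.97 CPM of RNA and 0 RF.

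The split of CDKN2A between DMSO replicates 1 and 2 and rapamycin replicates 1 and 2 in total RNA was also found in genes on other chromosomes, in a comparison chosen after its values were seen. Among all genes, 120 that included CDKN2A and CDKN2B had at most 3 RNA counts in each of DMSO replicates 1 and 2 and at least 50 in each of rapamycin replicates 1 and 2. Of these, 55 were also like CDKN2A in the remaining pair of libraries, with under 50% of the count of rapamycin replicate 1 in both DMSO replicate 3 and rapamycin replicate 3, and the others were not. The developmental factor HOXD13, of the first kind, had 2, 0 and 14 RNA counts with DMSO and 99, 85 and 12 with rapamycin, while TRPM3, of the second, had 0, 0 and 111 against 95, 89 and 105. The 2 RNA libraries of DMSO replicates 1 and 2 had counts for 16840 and 16858 genes, and the other 4 for 19751 to 19847. The part of these library differences in the RNA values of CDKN2A was not tested.

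The rest of the G1/S pathway was read from 5 lists with 46 tested genes in all, of which none passed an adjusted p of 0.05 by edgeR in TE, RF or total RNA. Unadjusted, 2 were lower and 2 higher in TE (6.42% and 6.17% of all genes), none passed in RF (3.68%) and 3 were lower in total RNA (2.51%). Over the 46 genes, 23 were fitted lower and 23 higher in TE, with a median log2 fold change of 0.01. Of the other CDK inhibitors, 3 of 5 could be tested, and their TE ranged from −0.29 for CDKN2D to 0.39 for CDKN2C, both inhibitors of CDK4 and CDK6 like p16. The RB relatives, E2F and DP factors had 6 of 12 genes lower and 6 higher. E2F3, an activating E2F, had the lowest fitted TE of them (−1.0, edgeR adjusted p = 0.451). It had 7, 14 and 26 footprints with DMSO and 12, 10 and 0 with rapamycin. RBL1 (p107) had the highest (1.62, edgeR adjusted p = 0.465), on RF counts of 0, 0 and 16 against 33, 11 and 0. E2F5 was at 1.25 (unadjusted p = 0.0306, edgeR adjusted p = 0.350), on 7, 4 and 17 footprints against 47, 12 and 3.

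Among 9 other cyclins and CDK activators, 5 were fitted lower in TE and 4 higher. CDK7, the kinase that activates CDKs, was lowest at −0.87 (unadjusted p = 0.0469, edgeR adjusted p = 0.388), on 18, 67 and 103 footprints against 27, 36 and 17. The phosphatase gene CDC25A was highest at 1.21 (edgeR adjusted p = 0.495), on 41 footprints. Of 12 genes that act in or on the degradation of G1 cyclins and inhibitors, 7 were lower and 5 higher. FBXO31, an F-box gene, was lowest at −1.21 (unadjusted p = 0.0141, edgeR adjusted p = 0.284), with RF counts of 2, 41 and 61 against 27, 12 and 2. FBXW7, whose product marks cyclin E for degradation, was highest at 2.58 (edgeR adjusted p = 0.511), and its footprints, 22, 0 and 0 with DMSO and 1, 96 and 26 with rapamycin, varied as much within a treatment as between them. Of 12 E2F target genes, 4 were lower and 8 higher in TE, from TYMS at −0.65 (edgeR adjusted p = 0.538) to CDC25A. The thymidine kinase gene TK1 was at 0.78 in TE (unadjusted p = 0.0411, edgeR adjusted p = 0.375). Of the 12 targets, 10 were fitted lower in total RNA, against 46.8% of all genes, with a median of −0.06 against 0.0059, and 3 of these passed the unadjusted threshold (2.51% of all genes). This was not particular to the targets, since 10 of 12 RB relatives, E2F and DP factors were also fitted lower in total RNA. The other lists had 2 of 3 (CDK inhibitors), 5 of 9 (other cyclins and CDK activators) and 5 of 12 (degradation) lower.

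Some members share their place with genes on the opposite strand: TSPAN31 with CDK4, PMEL with CDK2, LPAR6 and RCBTB2 with RB1, GPR19 with CDKN1B, LTO1 with CCND1 and CDKN2B-AS1 with CDKN2A. Whether the counting used strand is not given in the sources used here, so reads in shared exons cannot be told apart.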

How the data were processed

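Total RNA and RF of PANC-1 cells were sequenced in 12 libraries, grouped by the treatment, fraction and replicate number in the labels. The authors deposited raw counts per gene: RF reads were filtered on quality, trimmed and freed of rRNA, reads were aligned to GRCh37 with HISAT2, and unique alignments on protein-coding exons were counted with featureCounts. The authors deposited FPKM of genes and isoforms for total RNA from Cufflinks 2.2.1. The authors' own ratios, fold changes and p-values from RiboDiff, and the normalised counts, were not used. RiboDiff itself was not used here.

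Genes with at least 10 counts over the RF and 10 over the RNA libraries were kept, scaled by TMM within each library type, and tested with edgeR 4.0.16 (quasi-likelihood, robust) in R 4.3.3. SE and 95% intervals were taken from the fold change and F. Where the fitted variance of a gene is below Poisson in a library, edgeR reports for that gene the larger of its quasi-likelihood p and a Poisson p. Log2 TE per replicate used a prior count of 2 and an exact permutation test. Alternatives were DESeq2 1.42.0, limma 3.58.1, other filters and scalings, blocks, leaving out each replicate and, added after seeing the data, leaving out both replicates with the smallest RF libraries. Tests were tested on simulated data. GENCODE annotation on GRCh37 gave coordinates, coding lengths (Ensembl canonical transcript) and 5′ ends, and 19545 of 20212 genes matched by identifier.

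Members, lists and tests were chosen with earlier results of these data known. All members were named. From each list, the genes with the lowest and the highest TE change and any with an unadjusted p under 0.05 in TE or RF were named, with all 9p neighbours and the 3 genes most like CCND1 in log2 TE. The values of 1 further gene are not reported here.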

Additional observations from a re-analysis of the deposited data

How the results depend on the processing

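Of the 10 members, only CDK2 passed an adjusted p of 0.05 under any alternative, in TE by DESeq2's Wald test (−0.88, 1 member called). That test called 606 of 13329 genes lower in TE and 675 higher. CDKN1B, CDK2, CDK6 and CDKN2A kept a lower TE, and CCNE1 a higher one, under every alternative run. The members fitted lower numbered 6 to 9 in TE, 6 to 8 in RF and 4 to 7 in total RNA when single replicates were left out, and 3 in total RNA with a minimum of 60 counts. Without both replicates of the smallest RF libraries they numbered 5 of 10 in TE, 6 in RF and 8 in total RNA.

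CCND3 was reversed in TE by DESeq2's Wald test (−0.21), a minimum of 60 counts (−0.09), the culture block (−0.22) and limma per replicate (−0.35), in RF without both replicates of the smallest RF libraries (0.74), and in total RNA with no minimum (−0.0084) or without those replicates (−0.0073). Without those replicates CCND1 reached 0.0145 and CCNE2 0.23 in TE, and CCNE2 0.17 in RF. CDK4 was at −0.025 in TE under a joint TMM. In total RNA a minimum of 60 counts gave CDK2 0.0076, CCNE1 0.0066 and RB1 0.0014, and limma on FPKM gave CDK2 0.0150 with a pseudocount of 1, with or without a minimum, and 0.0153 with 0.1. Leaving out single replicates, TE ran from −0.25 to 0.53 for CCND3, −1.15 to 0.71 for CCNE2, −0.060 to 0.17 for CDK4 and −0.77 to 0.14 for RB1. RF ran from −0.73 to 0.46 for CCND3, −1.06 to 0.29 for CCNE2 and −0.13 to 0.076 for CDK4. Total RNA ran from −0.026 to 0.0040 for RB1, −0.040 to 0.020 for CDK2, −0.074 to 0.027 for CCNE1, −0.011 to 0.042 for CCND3 and −0.082 to 0.017 for CDKN1B. The causes were not tested.

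Over all genes, the calls in TE (0 lower, 0 higher) became 606 and 675 by DESeq2's Wald test, and up to 374 lower and 70 higher when single replicates were left out, both without DMSO replicate 3. In RF they became 1 and 4 by DESeq2, 10 and 10 with no minimum, and at most 1 and 6 with a replicate left out. In total RNA they became 4 and 25 by DESeq2, 2 and 2 by limma on log2(FPKM + 1), 3 and 2 with a pseudocount of 0.1, 10 and 160 with no minimum, and up to 6 and 875 without DMSO replicate 3. The order of the members' levels kept 2 of 10 places in RF per kilobase of exon and 4 of 10 in RNA counts per kilobase of exon. It kept 2 to 10 places in RF and 8 to 10 in total RNA without single DMSO replicates, the 2 being without DMSO replicate 1.

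Same-numbered DMSO and rapamycin libraries did not deviate together, with r of −0.0895 to −0.0461 in RF and −0.201 to −0.102 in RNA. Between different numbers r was −0.0115 to 0.0752 in RF and −0.121 to 0.180 in RNA. In RNA it was highest between rapamycin replicate 3 and DMSO replicates 1 (0.180) and 2 (0.175). Deviations were taken from the mean of 3 replicates per treatment, so these values depend on each other and cannot exclude pairing. A replicate block called 1 gene higher in TE and 2 lower and 4 higher in RF, no member, and turned CCND3 to −0.35 in TE. The depth of RF, 50 to 545 footprints per member in all, limits every TE value here. A further limit is that CDKN2A, reported to be deleted, had 26.3 to 141 CPM of RF, a range that includes RF values of other members. Whether such counts also enter the RF of the other members was not tested.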
